A study of Mus musculus with 6 samples.

Results

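The tetraspanins and the TM4SF proteins are membrane proteins that cross the lipid bilayer several times, and 34 of the 23366 genes counted in the embryonic intestinal epithelium encode members of these families. The members were taken by symbol: every numbered *Tspan* and *Tm4sf* gene, *Upk1a*, *Upk1b*, *Cd9*, *Cd37*, *Cd53*, *Cd63*, *Cd81*, *Cd82* and *Cd151*. Of these, 29 are tetraspanins and 5 belong to the TM4SF family. RNA-sequencing was performed on small intestine epithelium of mouse embryos at E13.5 that carried Shh-cre-egfp:Tcf7l1 lox/lox, referred to as mutant, and of wild type embryos, with 3 libraries for each genotype and no treatment. In the mutants, Cre recombinase is made from the *Shh* locus in the gut epithelium and removes a floxed exon of *Tcf7l1*, which encodes a repressor of WNT target genes. Each library holds the cDNA of 500 EpCAM-positive sorted cells after 15 cycles of amplification. Libraries that carry Cre with intact *Tcf7l1* are not among those analysed here, so effects of the Cre allele and of *Tcf7l1* loss cannot be told apart. Which embryos, and how many, gave each library is not given in the sources used here, so the p-values measure the spread between these libraries, which may be partly technical.

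Tetraspanins gather integrins, proteases, growth factor precursors and each other into patches of the plasma membrane and of endosomes, and they guide their partners through the secretory route. A large extracellular loop with a conserved Cys-Cys-Gly motif carries most of these contacts. TM4SF proteins have a similar layout in the membrane but form a separate family. In gut epithelium both families are best known from the apical and lateral membranes of absorptive cells and from vesicles that the cells release, and the uroplakin tetraspanins are best known from the apical plaques of the bladder lining.

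The codons of the Cys-Cys-Gly motif were looked for in the reference coding sequences of the mm9 annotation (GENCODE M1). All 28 tetraspanins with a complete coding sequence held the motif in frame, with the last occurrence between codons 128 and 227. Codon 227 is a second occurrence in *Cd81*, near the end of its 236 codons, and the first is at codon 156. *Tspan15* had no complete coding sequence in this annotation. Of the 5 TM4SF genes, 3 held it, first at codon 74 or 75, and *Tm4sf19* and *Tm4sf20* held none. Stretches of 45 bases around the motif are shown for the members whose comparison the results turn on, on the coding strand, with the 9 bases of the motif in capitals. The motif starts at codon 158 of *Upk1a*, 159 of *Upk1b*, 149 of *Tspan1*, 153 of *Tspan14*, 145 of *Cd63*, which also holds it at codon 72, and 74 of *Tm4sf5*.
Upk1a: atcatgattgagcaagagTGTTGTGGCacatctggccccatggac
Upk1b: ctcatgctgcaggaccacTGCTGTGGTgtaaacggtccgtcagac
Tspan1: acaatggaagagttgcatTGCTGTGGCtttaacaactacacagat
Tspan14: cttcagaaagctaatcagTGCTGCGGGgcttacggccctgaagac
Cd63: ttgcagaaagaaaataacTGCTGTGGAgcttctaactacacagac
Tm4sf5: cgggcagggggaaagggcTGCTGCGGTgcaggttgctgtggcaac
*Tm4sf5* carried the motif again at codon 79, within the stretch shown, where it is left in lower case. No member shared 95% identity over 50% of its transcript with a protein-coding transcript of another gene, among the 33 members searched.

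The total count lay between 18216537 and 20397278 in the 6 libraries, and the members held 0.473% to 0.515% of it in wild type libraries, against 0.480% to 0.511% in mutants. The targeted gene *Tcf7l1* had 476, 474 and 364 normalized counts in wild type and 41.4, 33.0 and 73.0 in mutant libraries. It fell by 3.16 as log2 fold change (log2FC), with an adjusted p of 4.19e-07. Adjusted p-values here and throughout come from the quasi-likelihood test of edgeR, after Benjamini and Hochberg, over 12501 genes in the main comparison. Where a library was left out or the filter changed, they were adjusted over the genes tested in that fit. *Shh*, the gene into which Cre was placed, was at 481 ± 65.8 in wild type and fell to 198 ± 22.6 in mutants, as mean ± SD with n = 3 (log2FC -1.28, adjusted p = 6.08e-05). *Xist*, which coats the inactive X chromosome, had 0 counts in every wild type library and between 229 and 424 counts in the mutant libraries, and 4 Y-linked genes, present in every wild type library, had 0 in every mutant library, so that sex and genotype cannot be told apart either. All 10 epithelial markers were detected. By the call defined below, 4 of them were lower in the mutants (*Cdh1*, *Krt18*, *Cldn6* and *Cdx2*), where 5.83% of all tested genes were called lower. *Krt19* (log2FC -0.49, adjusted p = 2.79e-05) and *Krt8* (-0.32, adjusted p = 0.00105) were lower without overlap and not called. *Epcam* (0.25, adjusted p = 0.013) and *Cldn4* (0.21, adjusted p = 0.0296) were higher without overlap and not called, and for *Cldn3* and *Vil1* the genotypes overlapped. The summed normalized counts of 8 mesenchymal markers lay between 1253 and 1471 in wild type and between 961 and 1004 in mutant libraries, and most of each sum was *Vim* (1252 ± 119 and 913 ± 49.4). The sums of 5 smooth muscle markers went the other way, from 176 to 230.3 in wild type and from 187 to 1065 in mutant libraries, with mutant 3 highest. Of the endothelial markers, 4 of 5 were at 0 in all libraries. In bulk samples of this kind, fewer cells of a type and less RNA per cell cannot be told apart.

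Levels can be compared between genes only per length, and RPKM (reads per kilobase of annotated exons, scaled to the normalized library size) was used for this. *Cd63*, which marks late endosomes and the vesicles released from them, had the highest level in wild type epithelium, at 421 ± 19.5 RPKM (mean ± SD, n = 3). *Tspan8*, an epithelial tetraspanin of the digestive tract, was next at 323 ± 34.4 RPKM. *Tspan31* at 232 ± 22.7 and *Tspan3* at 225 ± 13.0 RPKM followed and did not differ beyond their spread at these lengths, and 39.8% of the exon bases of *Tspan31* overlap the cell cycle kinase gene *Cdk4* on the opposite strand. *Cd81*, the TM4SF genes *Tm4sf4* and *Tm4sf20*, *Tspan13*, *Cd9*, *Tm4sf5* and *Tspan6* lay between 189 and 102 RPKM. In all, 11 members had more than 100 RPKM, 8 had between 10 and 100, and 7 tested members had less than 10. The uroplakin tetraspanins stood far apart in level, with *Upk1a* at 48.7 ± 5.45 and *Upk1b* at 5.86 ± 1.26 RPKM in wild type. Of the 25 pairs of neighbours in this order, 12 were closer than the sum of their SDs, for example *Tspan31* and *Tspan3*. The 10 members with the highest RPKM in wild type were also the 10 highest in mutant libraries. The order depends on the length used. With the longest transcript in place of all annotated exons, 13 of the 34 levels moved beyond their SD, and *Tspan3* (341 RPKM) came above *Tspan8* (323), and *Cd81* (279) above *Tspan31* (232). *Cd9* was then at 186, *Cd82* at 27.2 and *Tspan18* at 1.63 RPKM, while *Cd63* was still the highest at 463.

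**Figure D1:**
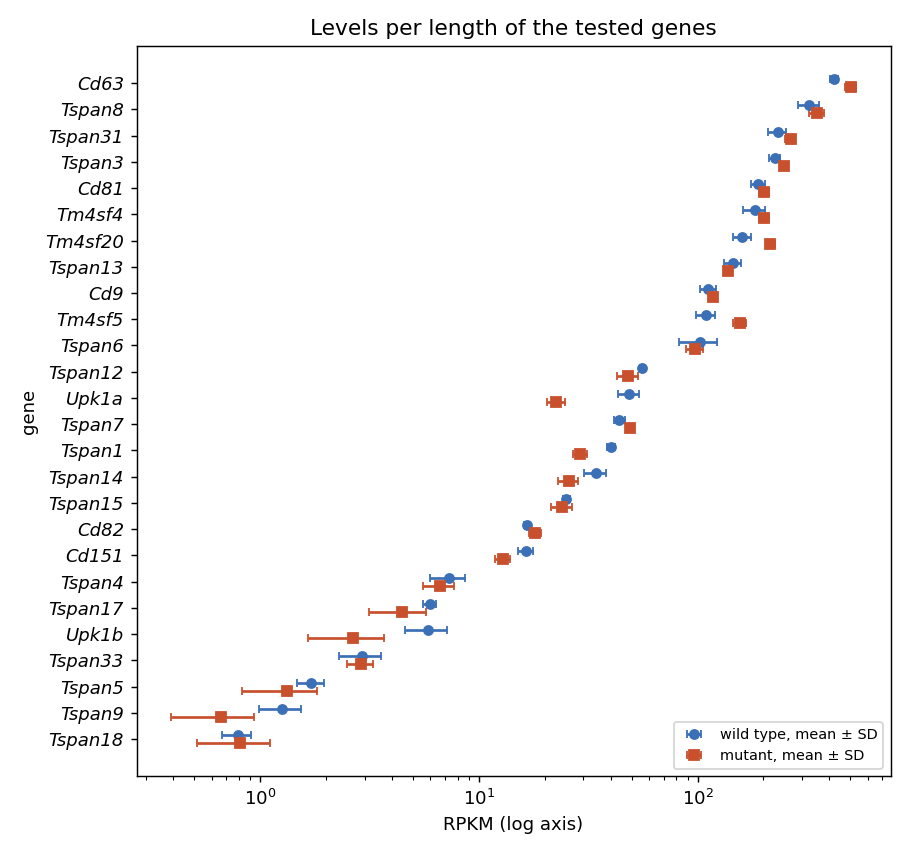
RPKM (x axis, log scale) of the 26 tested members (y axis, ordered by the wild type mean) in wild type and mutant libraries, as mean ± SD over 3 libraries. With all annotated exons as length, the order runs from *Cd63* at 421 RPKM to *Tspan18* at 0.788 RPKM, and the mutant mean of *Upk1a*, at 22.6 RPKM, lies well to the left of its wild type mean of 48.7.

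The comparison of mutant with wild type libraries asked how loss of *Tcf7l1* changes gene expression in the epithelium before villi form. Of the 34 members, 26 passed the filter on low counts and were tested. The uroplakin tetraspanins *Upk1a* and *Upk1b* fell 2.15-fold and 2.20-fold, and the TM4SF gene *Tm4sf5* rose 1.42-fold. A gene was called when its adjusted p was under 0.01, its log2FC was 0.5 or more in size and its normalized counts averaged 50 or more. By this call 1 member was higher and 2 were lower, where the same call named 2.78% of all tested genes higher, 5.83% lower and 8.62% in either direction. At an adjusted p under 0.05 with no minimum change, 3 members were higher and 4 lower, 11.5% and 15.4% of those tested, against 13.6% and 15.1% of all genes. The normalized counts of the genotypes did not overlap for 14 members, 7 with the mutants higher and 7 with the mutants lower (26.9% each, against 20.8% and 22.2% of all genes). The median log2 fold change of the tested members was -0.04, the same as the median of all tested genes, and the median of its size was 0.18 against 0.28. The members and all genes were not matched by expression level for these medians. The shares of called members were thus near those of all genes, and most members differed little between the genotypes.

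**Figure D2:**
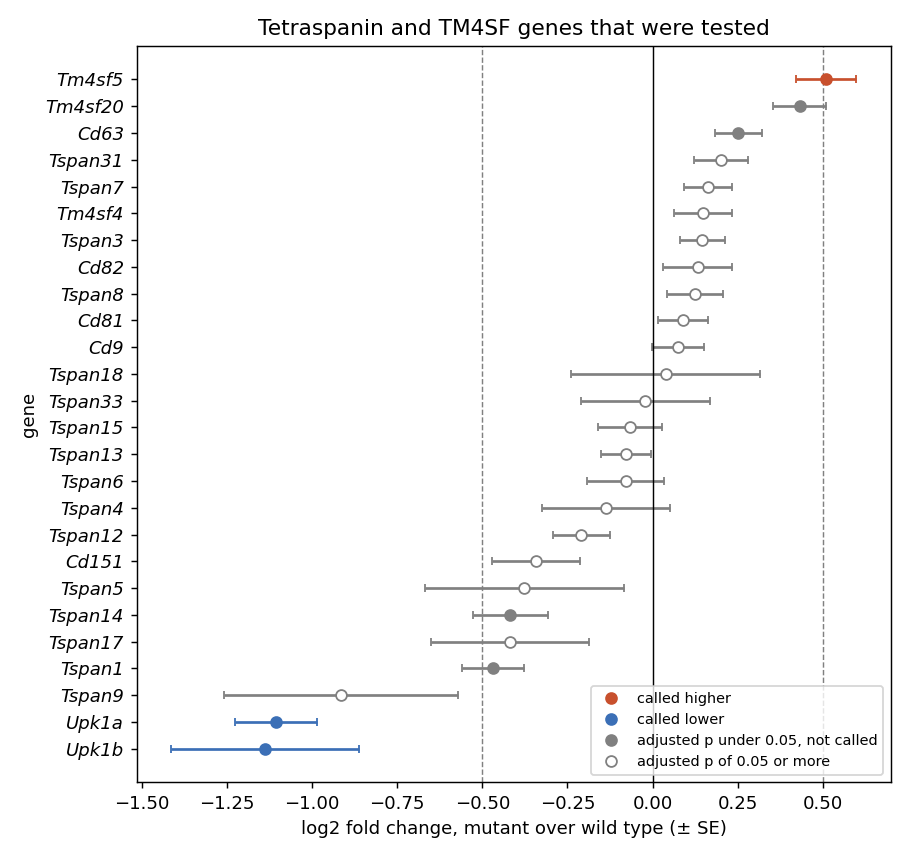
Log2 fold change of mutant over wild type (x axis, points with SE from edgeR) for the 26 tested members (y axis, ordered by value). *Tm4sf5* is the one point called higher, *Upk1a* and *Upk1b* are called lower, 4 filled grey points had an adjusted p under 0.05 without a call, and the dashed lines mark a log2 fold change of 0.5 in either direction.

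*Upk1a* and *Upk1b* encode the tetraspanins that pair with uroplakins 2 and 3 on their way to the surface of the bladder lining. *Upk1a* (ENSMUSG00000006313) is a minus-strand gene of chromosome 7 (mm9, bases 31388111 to 31397753). Wild type libraries 1, 2 and 3 gave 1401, 1185 and 1142 normalized counts of *Upk1a*, and mutant libraries 1, 2 and 3 gave 515, 617 and 603. Every mutant library was below every wild type library by a wide margin. The mean was 1242 ± 139 in wild type, and *Upk1a* fell to 578 ± 55.3 in mutants (log2FC -1.10, SE 0.12, adjusted p = 8.42e-06). *Upk1b* (ENSMUSG00000049436) is a minus-strand gene of chromosome 16 (mm9, bases 38773297 to 38800316). It had 152, 229 and 225 normalized counts in the wild type and 71.5, 132 and 71.9 in the mutant libraries. The genotypes did not overlap here either, but wild type 1 and mutant 2 lay close to each other. From a wild type mean of 202 ± 43.6, *Upk1b* fell to 91.8 ± 34.9 (log2FC -1.14, SE 0.28, adjusted p = 0.00653). At the threshold of 0.01, the call of *Upk1b* was lost without wild type 2 (adjusted p = 0.035), wild type 3 (0.0201), mutant 1 (0.0329) or mutant 3 (0.0304).

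The other uroplakins did not pass the test. *Upk2*, the partner of UPK1A in bladder, had 37.5, 32.6 and 2.85 normalized counts in wild type and 7.25, 12.8 and 5.53 in mutant libraries (adjusted p = 0.169), with wild type 3 below every mutant library. *Upk3a*, the partner of UPK1B, had a mean of 11.9 ± 8.39 in wild type and 21.9 ± 11.4 in mutant libraries (adjusted p = 0.36). *Upk3b*, which also marks mesothelium, had 374 ± 57.3 and 488 ± 116 (log2FC 0.39, adjusted p = 0.121). *Msln*, the other mesothelial marker tested of 4, fell from 314 ± 86.8 to 64.6 ± 43.7 (log2FC -2.28, adjusted p = 3.16e-04) and was called lower, in the same direction as *Upk1a* and *Upk1b*. The summed normalized counts of the mesothelial list lay between 550.3 and 824 in wild type libraries and between 437 and 715.5 in mutants. The summed normalized counts of 10 markers of gastric epithelium lay between 789 and 999.6 in wild type and between 125 and 193 in mutant libraries. Of the 7 tested, *Nkx6-3* and *Cldn18* were called lower. These genes made up most of the wild type sums, with *Nkx6-3* at 383.5 ± 129.9 and *Cldn18* at 299.3 ± 37.1 in wild type. *Tff2*, *Gkn2* and *Sox21* were lower without overlap and not called. The genotypes of *Anxa10* overlapped, and *Gkn1* had a mean of 43.4 in both. The part of gastric or mesothelial cells in the values of *Upk1a* and *Upk1b* was not tested.

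**Figure D3:**
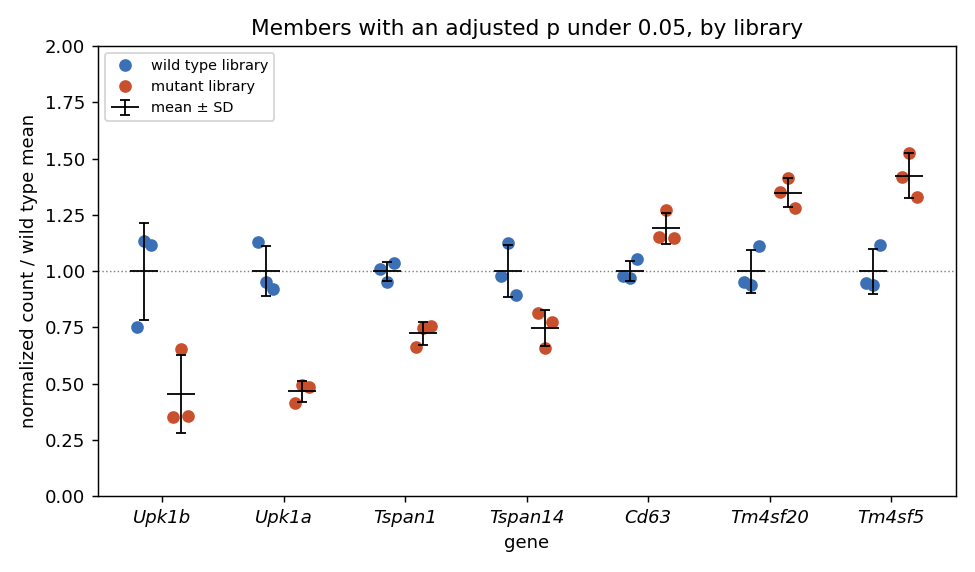
Normalized count of each library divided by the wild type mean (y axis) for the 7 members with an adjusted p under 0.05 (x axis), with points for single libraries and bars for mean ± SD over 3 libraries. The genotypes do not overlap for any of the 7, and the mutant points of *Upk1a* (515 to 617 normalized counts) lie far below its wild type points (1142 to 1401).

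All 3 tested TM4SF genes had higher means in the mutant libraries. *Tm4sf5* (ENSMUSG00000018919), which encodes a membrane protein of liver and gut cells, is a plus-strand gene of chromosome 11 (mm9, bases 70318746 to 70324680). It had 2044, 2020.2 and 2405 normalized counts in wild type and 3056, 3289.5 and 2864 in mutant libraries, so that the lowest mutant library exceeded the highest wild type library. From a wild type mean of 2156 ± 215, *Tm4sf5* rose to 3069.7 ± 213 (log2FC 0.51, SE 0.09, adjusted p = 6.38e-04). This is just past the minimum change of 0.5. The gene fell short of it, at an adjusted p still under 0.01, without wild type 1 (0.47 on the log2 scale), wild type 2 (0.46) or mutant 2 (0.46), when scaled by library size alone (0.41), with a correction for gene length (0.40), and with a filter at a mean count of 50 (0.496). *Tm4sf20* (ENSMUSG00000026149), whose product controls the cleavage of a membrane-bound transcription factor, is a minus-strand gene of chromosome 1 (mm9, bases 82753224 to 82765036). It had 4475, 4405 and 5215 normalized counts in wild type and 6352, 6633 and 6023 in mutant libraries, again without overlap. Its adjusted p was 9.58e-04, but its log2 fold change of 0.43 (SE 0.08) was under the minimum, and it was not called. *Tm4sf4*, first described in intestine and liver, had 5555, 4597 and 5747 in wild type and 5803, 6224 and 5586 in mutant libraries (log2FC 0.15, SE 0.08, adjusted p = 0.206), and its genotypes overlapped. *Tm4sf1*, a surface antigen of endothelium and many tumours, had 0, 2 and 0 raw counts in wild type and 4, 3 and 2 in mutant libraries and was not tested. *Tm4sf19* had 0 counts in all 6 libraries, which allows up to 3 counts in each.

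None of the 5 tested tetraspanins with CD names was called. *Cd63* (ENSMUSG00000025351) is a plus-strand gene of chromosome 10 (mm9, bases 128345975 to 128349872). It had 8304, 8209.5 and 8930.3 normalized counts in wild type and 9771, 10771 and 9743 in mutant libraries. The genotypes did not overlap, and the difference was small, at a log2 fold change of 0.25 (SE 0.07, adjusted p = 0.0134). Its adjusted p was 0.0591 when wild type 1 was left out, 0.051 for wild type 2 and 0.0856 for mutant 2. It was 0.0664 when scaled by library size alone (log2FC 0.15) and 0.0826 with the gene-length correction (log2FC 0.15). *Cd81*, a partner of immune receptors, had 8585, 7658 and 8846 in wild type and 8379, 9251 and 9066 in mutant libraries (log2FC 0.09, SE 0.07, adjusted p = 0.386). *Cd9*, best known for its role in the fusion of egg and sperm, had 4229, 4253 and 4917 in wild type and 4692, 4825 and 4593 in mutant libraries (log2FC 0.07, SE 0.08, adjusted p = 0.496). For both genes the genotypes overlapped, and their direction turned when scaled by library size alone. *Cd82*, known as a suppressor of metastasis, had 969 ± 21.9 in wild type against 1062 ± 71.0 in mutant libraries, without overlap (adjusted p = 0.358). *Cd151*, which binds the laminin-binding integrins, had 643 ± 49.5 and 508 ± 40.3 (log2FC -0.34, SE 0.13, adjusted p = 0.0576), and 11.1% of its exon bases overlap a gene on the opposite strand. The leukocyte tetraspanins *Cd37* and *Cd53* had at most 1 and 5 raw counts in any library, and both were at 0 in 4 or more of the 6.

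Among the other numbered tetraspanins on autosomes, 9 were tested and none was called. *Tspan1* (ENSMUSG00000028699), an epithelial tetraspanin, is a minus-strand gene of chromosome 4 (mm9, bases 115834474 to 115840206). It had 1843, 1738 and 1888 normalized counts in wild type and 1212, 1365 and 1378 in mutant libraries, with a clear gap between the genotypes. Its log2 fold change was -0.47 (SE 0.09, adjusted p = 0.00155), and it missed the call by its size alone. It was called lower without wild type 2 (-0.50 on the log2 scale) and when scaled by library size alone (-0.57).

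The abundant members of this group differed little. *Tspan3* had 13950.0, 13518 and 15100.5 normalized counts in wild type and 15396, 16062 and 15644 in mutant libraries (log2FC 0.15, SE 0.07, adjusted p = 0.104). *Tspan8* had 9192, 8835 and 10757 in wild type and 9907, 11399 and 10084 in mutant libraries (log2FC 0.13, SE 0.08, adjusted p = 0.274). The genotypes of *Tspan3* did not overlap, and those of *Tspan8* did. *Tspan13* had 7062, 6379.5 and 7610.1 in wild type and 6525, 6774 and 6650.4 in mutant libraries (log2FC -0.08, SE 0.07, adjusted p = 0.465), with all mutant libraries inside the wild type range. *Tspan31* had 6991, 6128 and 7449.5 in wild type and 7631, 8352 and 7659 in mutant libraries (log2FC 0.20, SE 0.08, adjusted p = 0.0654). *Cdk4*, which shares exon bases with *Tspan31* on the opposite strand, had a log2 fold change of 0.17 (adjusted p = 0.0511), and how far its reads enter the counts of *Tspan31* was not tested. *Tspan12*, a coreceptor in the Norrin and FZD4 route to beta-catenin, had 2937, 2805 and 2815 in wild type and 2302, 2769.9 and 2331 in mutant libraries (log2FC -0.21, SE 0.08, adjusted p = 0.0749). Mutant 2 lay just under the wild type range and the other mutants well below it.

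The scarce members of the group were less precise. *Tspan9*, known from platelets, had 116 ± 25.3 normalized counts in wild type and 61.4 ± 25.4 in mutant libraries, without overlap (log2FC -0.91, SE 0.34, adjusted p = 0.0556). Its SE of 0.34 stood against 0.09 for the more abundant *Tspan1*. *Tspan4* had 310.2 ± 55.4 and 282 ± 46.5 (adjusted p = 0.622), and *Tspan18* had 119.7 ± 18.2 and 123 ± 45.1 (adjusted p = 0.935).

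The TspanC8 tetraspanins escort the sheddase ADAM10, which cuts Notch receptors and many other surface proteins, out of the endoplasmic reticulum. Of the 6 genes, 5 were tested and none was called. All 5 had a log2 fold change under 0, as did 6787 of all 12501 tested genes. Their median was -0.38 against -0.04 for all genes, and only *Tspan14* had an adjusted p under 0.05. *Tspan14* (ENSMUSG00000037824) is a minus-strand gene of chromosome 14 (mm9, bases 41719734 to 41780096). It had 1624, 1866 and 1484 normalized counts in wild type and 1347, 1090.5 and 1285 in mutant libraries, without overlap (log2FC -0.42, SE 0.11, adjusted p = 0.00996). It was called lower when scaled by library size alone (-0.53 on the log2 scale), and its adjusted p was 0.0641 without wild type 2 and 0.0584 without mutant 2. *Tspan15* had 1768 ± 65.2 and 1688 ± 183 (log2FC -0.07, adjusted p = 0.639) and *Tspan33* 296 ± 63.7 and 292 ± 40.5 (-0.02, adjusted p = 0.944). The direction of *Tspan15* turned only with the gene-length correction and without mutant 2, and that of *Tspan33* turned under several settings. *Tspan17* had 193 ± 13.4 and 144 ± 42.2 (-0.42, SE 0.23, adjusted p = 0.192), and *Tspan5* had 131 ± 18.3 and 101 ± 37.6 (-0.38, SE 0.29, adjusted p = 0.36). *Tspan10*, known from pigmented cells of the eye, had 0 counts in all libraries. *Adam10* itself had 1085 ± 79.7 in wild type against 962 ± 189 in mutant libraries (log2FC -0.17, adjusted p = 0.344).

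*Tspan6* and *Tspan7* lie on the X chromosome, and the libraries differ by sex as well as genotype. *Tspan7*, best known from neurons, had 5999, 5717 and 6440.1 normalized counts in wild type and 6543, 6872 and 6896 in mutant libraries (log2FC 0.16, SE 0.07, adjusted p = 0.0932). *Tspan6* had 3220.2, 3041 and 4327 in wild type and 3179, 3691 and 3149 in mutant libraries (log2FC -0.08, SE 0.11, adjusted p = 0.635). Wild type 3 was the highest library of *Tspan6*, and without it the log2 fold change was 0.11. Neither gene was called, and of the 422 tested genes of the X chromosome, 2.84% were called higher and 5.92% lower.

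Of the 8 members that were not tested, 3 have not yet been described. *Tspan2*, known from myelinating cells, had 5, 20 and 0 raw counts in wild type and 0, 0 and 9 in mutant libraries. *Tspan32*, a tetraspanin of blood cells, was at 5 raw counts in wild type 1 and at 0 elsewhere. *Tspan11* had 11, 4 and 7 raw counts in wild type and 1, 0 and 0 in mutant libraries, which is too few for the filter although the genotypes did not overlap. PCR reads without molecular identifiers are not independent molecules, so the limit of 3 counts that a count of 0 allows covers counting error only.

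The proteins that tetraspanins bind, or travel with, were compared through a list of 29 genes, of which 27 were tested. The list also holds *Prph2* and *Rom1*, tetraspanin genes outside the symbol rule, of which *Rom1* was tested. By the same call 1 of the 27 was higher and 1 lower, where 2.78% of all tested genes were called higher and 5.83% lower. The median log2 fold change was -0.07, against -0.04 for all tested genes. *Hbegf*, the precursor of an EGF receptor ligand that CD9 binds, had 3975, 3486 and 3434 normalized counts in wild type and 5852, 5633 and 5420.3 in mutant libraries. It rose with no overlap between the genotypes (log2FC 0.63, SE 0.08, adjusted p = 2.32e-05). *Mmp14*, a membrane-bound protease that opens collagen matrices, had 1147, 1159 and 912 in wild type and 758, 556 and 710.2 in mutant libraries. It fell (log2FC -0.67, SE 0.14, adjusted p = 0.00204), but the call was lost without wild type 1, wild type 2 or mutant 2. Of the mesenchymal markers given above, *Vim* was also lower in every mutant library, but only 4 of the 8 passed the filter and none was called. All 5 smooth muscle markers had higher mutant means, but none was called. Their sum in mutant 1, at 187 normalized counts, lay inside the wild type range of 176 to 230.3. The part of such cells in the value of *Mmp14* was not tested.

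At an adjusted p under 0.05 with no minimum change, 3 partners were higher and 3 lower. These were 11.1% each of the partners tested, against 13.6% and 15.1% of all genes. Several of them differed by less than the minimum change. *Epcam*, the protein on which the cells were sorted, had 51986 ± 4624 normalized counts in wild type and 61669 ± 2107 in mutant libraries (log2FC 0.25, adjusted p = 0.013). *Cldn7*, a claudin that binds EpCAM in tetraspanin patches, had 26081 ± 1508 and 30822 ± 64.1 (log2FC 0.24, adjusted p = 0.0091). *Hgs*, which sorts cargo into the vesicles of late endosomes, had 1917 ± 297 and 1376 ± 87.6 (log2FC -0.48, adjusted p = 0.00475). *Pdcd6ip*, another gene of that route, had 4264 ± 454 and 3466 ± 373 (log2FC -0.30, adjusted p = 0.0247). None of the 4 laminin-binding integrin genes passed, with log2 fold changes between -0.24 and 0.11. Of the tetraspanin genes that the symbol rule leaves out, *Prph2* had 0 counts in all libraries and *Rom1* had 21.6 ± 6.10 in wild type against 6.04 ± 2.18 in mutant libraries (adjusted p = 0.0521).

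CTTTGA, a form of the core at which TCF proteins bind DNA, was looked for on both strands in RefSeq promoters of GRCm38.p6. The window was the 250 bases before each annotated start, and other forms of the core were not looked for. Of the 34 members, 31 matched the table, with 41 promoters, and 2 of these promoters held this form, 1 of *Cd63* and 1 of *Cd82*. Of all 32851 promoters, 13.8% held it. The promoters of *Upk1a*, *Tm4sf5*, *Tspan1* and *Tspan14* did not hold these letters in this window. That says nothing of other forms of the core or of binding elsewhere. *Upk1b*, *Tm4sf20* and *Tspan18* did not match the table.

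**Figure D4:**
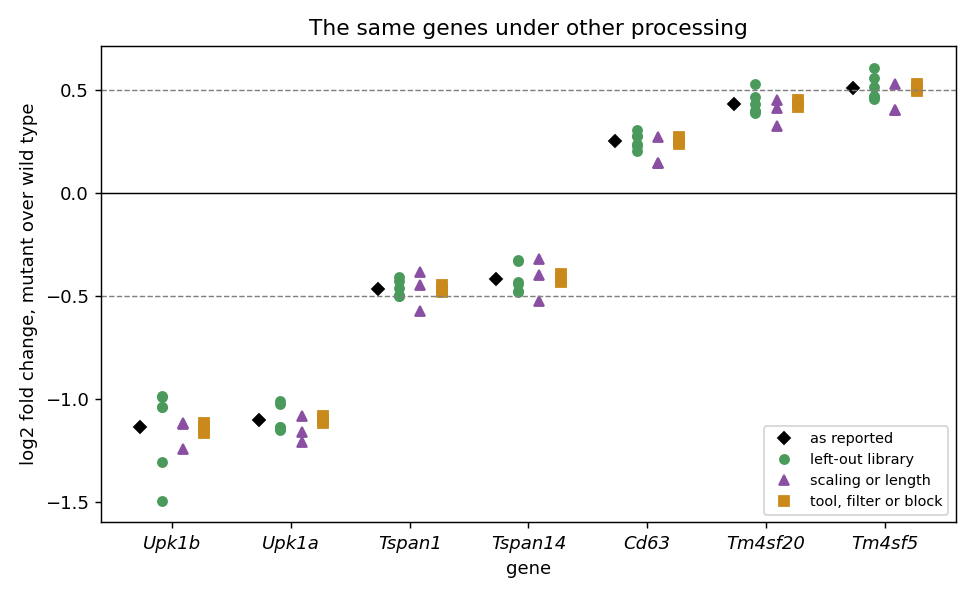
Log2 fold change of mutant over wild type (y axis) for the 7 members with an adjusted p under 0.05 (x axis), as reported and under other processing. All points of each gene keep their side of 0, and those of *Tm4sf5*, *Tm4sf20*, *Tspan1* and *Tspan14* fall on both sides of the dashed lines at 0.5 and -0.5, the minimum change for a call, while *Upk1a* lies between -1.21 and -1.01.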

How the data were processed

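The authors mapped the reads of 6 libraries with STAR 2.5.2b to mm9, assigned those with a unique position to genes of a UCSC model by featureCounts 1.5.1, and deposited the raw counts per library. Tool versions and build are from the submitters' processing notes. A strand setting is not given in the sources used here, so genes that overlap on opposite strands may share reads. Testing used edgeR 4.0.16 (R 4.3.3) on TMM-scaled counts that passed filterByExpr, by a quasi-likelihood test of genotype, adjusted over 12501 genes. Normalized counts are scaled to the mean effective library size, and a mean of at least 50 stood in for the RPKM limit of the authors' call. RPKM used exon lengths of GENCODE M1 on NCBIM37, the same assembly as mm9, which names 95.0% of the tested genes, with the longest transcript as an alternative length. Transcripts were compared with BLAST+ 2.17.0. In simulated counts for 12501 genes, the edgeR test recovered 92% of changes of 1 on the log2 scale and 98% of those of 2, and called 1 unchanged gene. The simulation gave every gene the same dispersion and placed changes only in genes with a mean normalized count of at least 50. These shares therefore do not describe scarcer genes or genes of greater spread. Chi-square values between libraries of a group lay between 6.30 and 17.9 per gene, above the sampling noise of 1, so no library was a second deposit of another, which does not show that they came from separate embryos. Alternatives were DESeq2 1.42.0, other scalings, filters and thresholds, a gene-length correction by loess of span 0.5, the replicate number as a block, and leaving out each library. Every called member, every member with an adjusted p under 0.05 and the 12 members with the highest mean counts are given by library, the others by means or counts, and called partner genes are named. Partner genes that were not called, *Cdk4* and the marker genes are named in addition, chosen after their values were seen. The members and lists were chosen with earlier results of these data known.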

Additional observations from a re-analysis of the deposited data

How the results depend on the processing

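The call of *Upk1a* and the direction of all 7 members with an adjusted p under 0.05 held under every alternative. Of the members, 0 were called higher when scaled by library size alone, with the filter at a mean count of 50, with the gene-length correction and at a log2 fold change of at least 1, and 2 with no minimum change. Called lower were 4 when scaled by library size alone and with no minimum change. With each library left out, between 0 and 2 members were higher and between 1 and 2 lower. Of the partner genes, 2 were higher with no minimum change and 0 at a log2 fold change of at least 1. Of these genes, 2 were lower when scaled by library size alone and with no minimum change, and 0 at a log2 fold change of at least 1. With each library left out, 1 partner gene was higher and between 0 and 2 were lower. Directions turned only for members that were not called. Scaled by library size alone, which shifted the median of all genes by -0.11 on the log2 scale, the log2 fold change was -0.015 for *Cd81*, -0.0294 for *Cd9* and -0.0671 for *Tspan18*. With the gene-length correction, which shifted it by 0.13, it was 0.0203 for *Tspan13*, 0.12 for *Tspan15* and 0.20 for *Tspan33*. Relative to those medians, *Upk1a* stayed between -1.24 and -1.06 and *Tm4sf5* between 0.32 and 0.56, whereas *Cd63* went from 0.29 to 0.0629 with the gene-length correction. *Tspan33* was at 0.0018 with DESeq2 and 0.0004 with RLE normalization. With each library left out, *Tspan18* lay between -0.30 and 0.2108, *Tspan33* between -0.1479 and 0.15, *Tspan15* between -0.12 and 0.0208 and *Tspan6* between -0.1762 and 0.11. The replicate numbers did not pair the libraries, with correlations of deviations of 0.01, -0.045 and -0.018. With the replicate block, 1 member was higher and 2 lower, as without it, and *Tspan18* had a log2 fold change of -0.0042. DESeq2 called 410 genes higher and 789 lower over all genes, and the same 3 members. The share of calls that were higher over all genes was 32.3%, 17.3% when scaled by library size alone and 63.6% with the gene-length correction. Over all genes, where 348 were higher and 729 lower, leaving out wild type 1 gave 405 lower, leaving out wild type 2 gave 406, and leaving out mutant 2 gave 463. Scaled by library size alone 200 were higher, with the gene-length correction 728 were higher and 417 lower, with no minimum change 902 were higher, at a minimum of 1 there were 85 and 284, and at an adjusted p under 0.05 with the same minimum 1178 were lower. Where a change was lost or turned, the cause was not tested. Members with fewer than about 200 normalized counts, such as *Upk1b* and *Tspan9*, had an SE above 0.2.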
